A study of Homo sapiens with 4 samples.

Results

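The sites described here are N6-methyladenosine (m6A) positions in the middle stretch of the 3' UTR, 201 to 1000 nt after the stop codon. They were chosen by position alone from a list of m6A sites predicted in C643 cells. A listed site was a member if it lay, on its own strand, in the 3' UTR of the Ensembl canonical transcript of a protein-coding gene with at least 2 exons, with distances counted along the spliced transcript from the last base of the stop codon. Of 18789 listed sites, 4387 met the rule (23.3%, 95% Wilson interval 22.7 to 23.96), in 1599 host genes. They are called mid sites here, and the zones on either side are the first 200 nt after the stop codon (3890 sites) and the distal 3' UTR beyond 1000 nt (1350 sites).

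The study profiled m6A with miCLIP2, an antibody-based method in which ultraviolet light ties the antibody to the RNA and the end of the cDNA marks the modified nucleotide. There was 1 group, wild-type C643 cells grown without treatment, an established line from an anaplastic thyroid carcinoma, with 3 biological replicates in 4 libraries since replicate 1 was sequenced as a pair of technical libraries. The deposited list pools the replicates and gives each site a score from the m6Aboost classifier, a fraction between 0 and 1 that states how surely a peak was called modified. No spread between cultures could therefore be given, reads per site are not known, and no sample lacking the methyltransferase was analysed here. A score is no measure of how many transcript copies are methylated. The intervals below cover counting only, and they are too narrow where neighbouring sites are not independent. Expression levels were not used, and genes that lack a listed site cannot be told from genes with too few reads.

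m6A is placed on nascent mRNA by the METTL3-METTL14 complex at adenosines in a short sequence context called DRACH, where D stands for any base but C, R for a purine and H for any base but G. In long internal exons and in last exons the mark is frequent, while short internal exons carry little of it, since exon junction complexes keep the methyltransferase away from nearby RNA. In the 3' UTR the mark is read by YTH domain proteins, which shorten the life of many mRNAs, in the same stretch of RNA that carries microRNA sites, AU-rich elements and polyadenylation signals.

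To show what a mid site looks like, the highest-scoring site at each of the 6 most frequent DRACH pentamers, with 1 chromosome left aside, is printed with 10 nt of GRCh38 on either side, 5′ to 3′ on the transcript strand, as DNA. Capitals mark the pentamer, whose middle base is the listed A.
DNAJC5: ctgcagtaGGACTctgatctc
ZDHHC14: agactaatGGACAgtgtcatc
LZTR1: gtggggagAGACTttgggcct
SLC20A1: tggaatgtGAACTttgggcaa
NFE2L1: gaaggaatGGACCtgtgagag
LEMD2: agaacaagTGACTgtaggggg

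These windows all lay in last exons. DNAJC5, a vesicle cochaperone, had its site at chr20:63932063-63932083 on the plus strand, 505 nt after the stop codon with a score of 1. ZDHHC14, a palmitoyltransferase, had its site at chr6:157673704-157673724 on the plus strand, 592 nt after the stop codon with a score of 0.975. LZTR1, an adaptor for the ubiquitination of RAS proteins, had its site at chr22:20997646-20997666 on the plus strand, 308 nt after the stop codon with a score of 1. The phosphate transporter SLC20A1 had its site at chr2:112663731-112663751 on the plus strand, 716 nt after the stop codon and 84 nt before the transcript end, with a score of 1. The transcription factor NFE2L1, a regulator of proteasome genes, had its site at chr17:48059954-48059974 on the plus strand, 323 nt after the stop codon with a score of 0.973. LEMD2, a protein of the inner nuclear membrane, had its site at chr6:33772081-33772101 on the minus strand, 537 nt after the stop codon with a score of 0.968. The 6 genes thus differ in function, and their sites lie from 308 to 716 nt after the stop codon.

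Members at other pentamers are shown for contrast by the highest-scoring site at each of the 3 most frequent non-DRACH sequences, chosen and printed in the same way.
CAVIN1: tactagaaGGACGtgaaagca
KIAA0930: cagaatttGGATTctgagggt
POMGNT2: gtaatcatGTACTgtttgatt

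CAVIN1, a coat protein of caveolae, had its site at chr17:42404188-42404208 on the minus strand with a score of 0.949. KIAA0930 had its site at chr22:45196427-45196447 on the minus strand with a score of 0.784. POMGNT2, a glycosyltransferase that acts on dystroglycan, had its site at chr3:43079322-43079342 on the minus strand with a score of 0.807. In each of the 3, a single base of the pentamer departed from DRACH, the last base in CAVIN1, the fourth in KIAA0930 and the second in POMGNT2.

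The sequence context of mid sites was dominated by few pentamers. Of the 4387 sites, 3837 (87.5%, 86.5 to 88.4) lay at DRACH, against 88.8% (87.8 to 89.8) just after the stop codon and 88.7% (86.9 to 90.3) in the distal zone. GGACT accounted for 824 mid sites, GGACA for 561, AGACT for 482, GAACT for 447, GGACC for 365 and TGACT for 336. Counts also depend on how often a pentamer occurs, so each was set against its occurrences in the mid zone of the 3627 transcripts that held any listed site. Of 2125 GGACT motifs 38.8% were listed (36.7 to 40.9), of 1534 GAACT motifs 29.1% (26.9 to 31.5), of 1891 AGACT motifs 25.5% (23.6 to 27.5) and of 2320 GGACA motifs 24.2% (22.5 to 25.97). Few AAACC motifs were listed, 9 of 1882 or 0.478% (0.252 to 0.906). Within genes, the odds of being listed were 7.10 times higher for GGACT than for the other DRACH pentamers in the mid zone (95% interval 6.22 to 8.10, Mantel-Haenszel odds ratio over n = 910 genes, two-sided Cochran-Mantel-Haenszel test, Benjamini-Hochberg adjusted p over 6 tests = 3.22e-246). The bases around the A were inputs of the classifier, so this ratio is not independent of how the list was made.

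The 550 mid sites outside DRACH were themselves close to it. The C that follows the methylated A was kept at 351 of them (63.8%, 59.7 to 67.7). GGACG was listed 113 times, at 16.8% of its 674 occurrences (14.1 to 19.8), a share close to the 17.3% (15.7 to 18.9) of GGACC. Of the other pentamers, GGATT was listed 68 times (4.15% of 1640 occurrences) and GTACT 66 times (7.80% of 846). The median score was 0.811 at DRACH sites (quartiles 0.721 and 0.879), 0.619 at the others (0.541 and 0.728) and 0.550 at the 199 sites that lacked the C. Sequence was an input of the classifier, so these scores are not independent of it. Of the 550 non-DRACH mid sites, 241 had a DRACH mid site within 50 nt. The same count was not made for DRACH mid sites, so it does not set the non-DRACH sites apart.

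The bases next to GGACT differed between listed and unlisted motifs of the mid host genes. At position -3, the base just before the pentamer when the A is counted as 0, G stood at 30.7% of 823 listed motifs (27.7 to 33.98) and at 41.0% of 600 unlisted motifs (37.1 to 44.98). At position -6, C stood at 31.2% of listed (28.2 to 34.5) and 23.2% of unlisted motifs (19.97 to 26.7). These positions were chosen after their values were seen, as those with the largest differences, and were not tested.

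The next question was how listing changes along the 3' UTR. In host transcripts 7.49% of all exonic DRACH motifs were listed, and 9.35% of those in the 3' UTR. In the mid zone 3837 of 32037 DRACH motifs were listed (11.98%, 11.6 to 12.3), against 26.2% (25.5 to 26.99) of 13176 motifs just after the stop codon, 2.63% (2.48 to 2.78) of 45595 in the distal zone and 6.15% (6.01 to 6.29) of 107858 in the coding sequence. The mid zone thus stood between its neighbours and above the coding sequence. For GGACT alone the shares were 65.2% (62.4 to 67.9) just after the stop codon, 38.8% in the mid zone, 12.1% (10.9 to 13.5) in the distal zone and 22.6% (21.7 to 23.6) in the coding sequence. Comparing motifs within the same gene, the odds of listing were 2.93 times higher just after the stop codon than in the mid zone (2.76 to 3.12, n = 2350 genes, Cochran-Mantel-Haenszel test, adjusted p = 6.01e-291). They were 3.67 times higher in the mid zone than in the distal zone (3.38 to 3.98, n = 1005 genes, same test, adjusted p = 4.93e-263). The 3' UTR ends in use in C643 cells were not analysed here, so motifs far from the stop codon may be missing from the RNA of a gene. The transcript region was an input of the classifier, as 5' UTR, coding sequence or 3' UTR, with no zones within the 3' UTR. Without positions that are coding or 5' UTR in any transcript, the odds ratios were 3.03 and 3.71. The part of the region input in these differences was not tested.

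Within the mid zone the share fell step by step. It was 18.1% (17.1 to 19.2) at 201 to 300 nt, 16.0% (15.0 to 17.1) at 301 to 400 nt and 14.4% (13.4 to 15.5) at 401 to 500 nt. It then fell to 10.8% (9.91 to 11.8) at 501 to 600 nt and 9.66% (8.75 to 10.6) at 601 to 700 nt. In the last 3 bins of the window it was 7.51% (6.68 to 8.43), 7.12% (6.28 to 8.07) and 5.53% (4.76 to 6.40). The first bin of the distal zone, at 5.18% (4.40 to 6.08), was not separated from the last of the mid zone. DRACH motifs were no sparser at the far end of the window, with 17.1 motifs per kb in the first bin and 17.3 in the last. The GGACT share fell less evenly, from 53.2% (48.0 to 58.3) of 357 motifs in the first bin to 25.8% (20.2 to 32.3) of 198 in the last. It was 33.7% (28.3 to 39.7) at 501 to 600 nt and 36.8% (30.7 to 43.3) in the next bin, and the intervals of these neighbours overlapped.

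**Figure D1:**
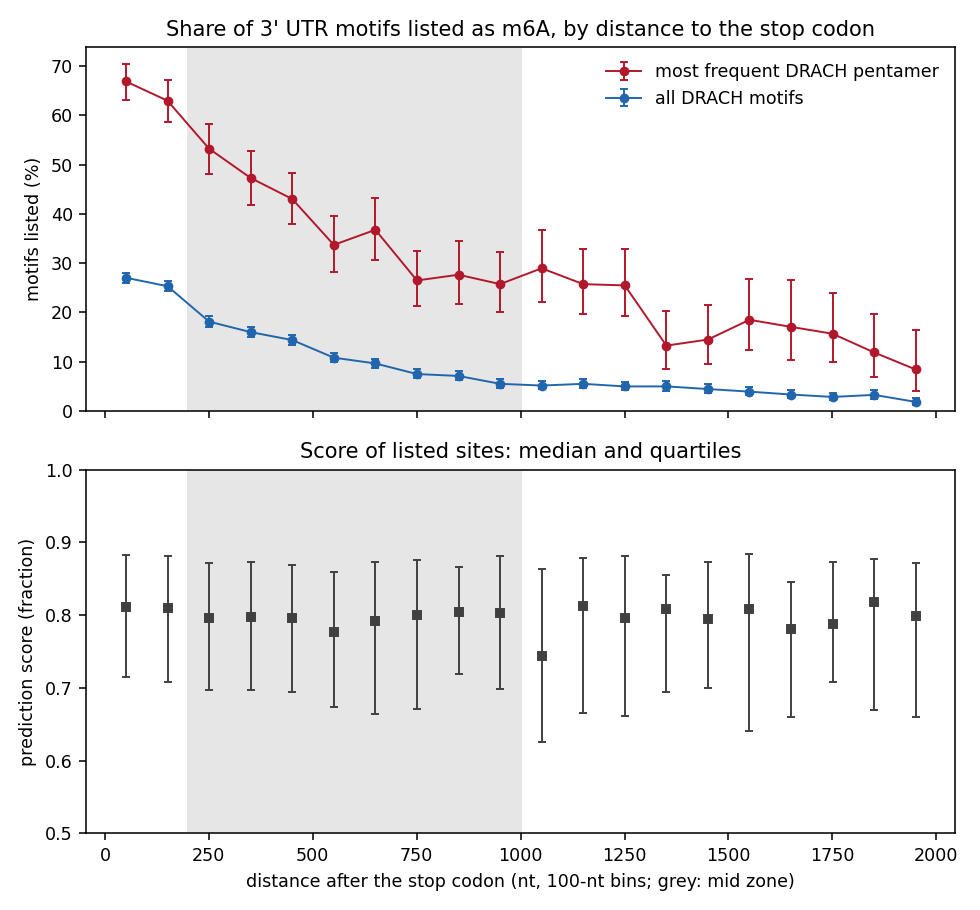
Top, percent of DRACH motifs and of the most frequent DRACH pentamer (GGACT) that were listed, in 100-nt bins of distance after the stop codon, with 95% Wilson intervals. Bottom, median score of all listed sites per bin with quartiles. Across the shaded mid zone the DRACH share falls from 18.1% to 5.53%, and the median score lies between 0.777 and 0.804.

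The median distance of mid sites to the stop codon was 419 nt (quartiles 296 and 609). The first 200 nt of the window held 2029 of them (46.3%) and 31.9% of the mid-zone DRACH motifs. Many 3' UTRs end inside the window, so its far part holds fewer motifs. Beyond 800 nt lay 431 sites (9.82%) and 19.2% of the motifs. The bounds cut through a continuous series of sites. Just outside, 10 sites lay at 200 nt, in BCL3, LLGL1, MAPK11, PIM3, PLA2G15, PPP5C, SLC25A29, SLC25A37, STOML1 and XPO6, with scores from 0.535 to 0.868. Just inside, 10 lay at 201 nt, in ACTR1B, DTYMK, ENTPD6, LAMB3, LMF2, MIEN1, PACS2, THRA, TLE3 and TMBIM1, with scores from 0.658 to 0.907. At the far bound, the cell cycle factor E2F1 (score 0.562) and FBXL19 (0.895) had sites at 1000 nt, and SPC24, a kinetochore subunit, had one at 1001 nt (0.598).

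Distance to the transcript end gave a sharp lower limit. Of the 1581 mid-zone DRACH motifs less than 50 nt from the annotated end, 4 were listed (0.253%, 0.0984 to 0.649), and of 1225 motifs from 50 to under 100 nt 7.18% were (5.87 to 8.77). From 100 to under 200 nt the share was 15.97% (14.5 to 17.6), and at 1600 nt or more it was 11.1% (10.5 to 11.7). The median distance to the stop codon of the motifs in these classes was between 506 and 545 nt, so the classes differed little in that respect. The cause of the low share next to the end was not tested. The canonical end need not be the one used in C643 cells, where the ends in use were not analysed here.

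**Figure D2:**
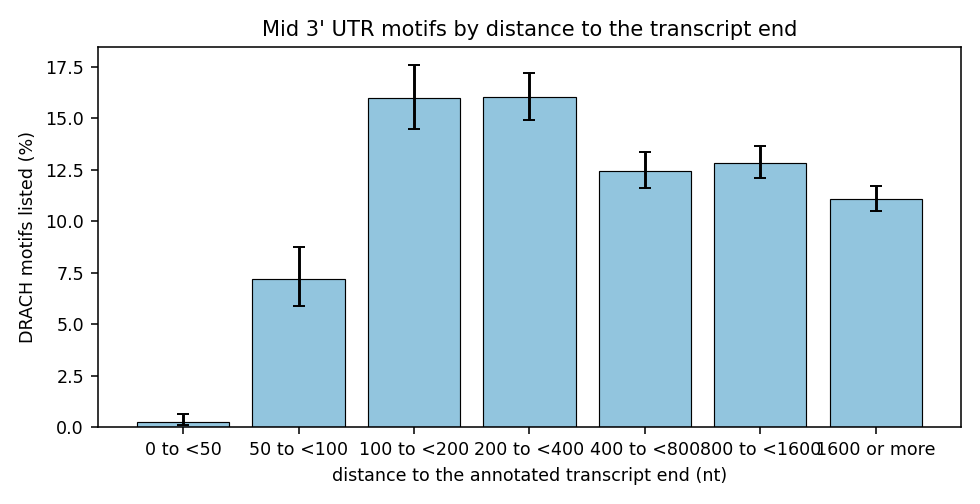
Percent of mid-zone DRACH motifs that were listed, by distance in nt to the annotated end of the transcript, with 95% Wilson intervals. The bar for motifs less than 50 nt from the end stands at 0.253%, and bars from 100 nt on lie between 11.1% and 16.0%.

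Mid sites lay at a median of 868 nt from the transcript end (quartiles 356 and 1829), and 510 of them (11.6%) lay within 200 nt of it. As a share of the 3' UTR, their median position was 33.7% of the way from the stop codon (quartiles 17.8% and 55.1%). Host genes of mid sites had a median 3' UTR of 1223 nt (quartiles 724.5 and 2119). The 1658 hosts of other sites whose 3' UTR exceeded 200 nt, and which therefore had a mid zone, had a median of 783.5 nt (368 and 1936). All 16069 annotated multi-exon coding genes with a 3' UTR over 200 nt had a median of 1368 nt, longer than that of mid hosts. Among all 3257 hosts with such a 3' UTR, 49.1% held a mid site. That share was 20.8% (18.1 to 23.9) of the 758 genes with a 3' UTR of up to 500 nt and 58.2% (54.8 to 61.5) of the 828 genes with 500 to 1000 nt. It was 62.3% (58.9 to 65.5) of the 827 genes with 1000 to 2000 nt, 54.4% (50.5 to 58.3) of the 623 genes with 2000 to 4000 nt and 47.5% (41.0 to 54.1) of the 221 genes with more. Per motif, which takes the smaller window of short 3' UTRs into account, the range was narrower. It went from 10.1% (9.10 to 11.2) in the longest class to 14.0% (13.3 to 14.8) at 500 to 1000 nt.

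The last exon held 4375 of the mid sites (99.7%). Because a gene's last exon can start before or after its stop codon, motifs at one distance from the stop codon differ in their distance from the last junction. At 201 to 300 nt after the stop codon, 20.3% (18.8 to 21.9) of 2650 motifs were listed where the exon began at most 400 nt upstream of the motif, and 16.1% (14.7 to 17.5) of 2676 motifs where it began further away. At 301 to 400 nt the shares were 19.5% (16.7 to 22.6) of 693 and 15.4% (14.4 to 16.5) of 4164. Stratified by 100-nt bin of distance to the stop codon, the odds of listing were lower for the farther class, with a Mantel-Haenszel odds ratio of 0.749. A gene has a single last exon, so this comparison is between genes, and the planned test, which counts motifs as independent, gives too small a p. A logistic model with the same bins and with errors clustered by gene, added after seeing the data, gave an odds ratio of 0.749 (0.655 to 0.856, n = 3123 genes, unadjusted p = 2.38e-05). Differences in expression between these genes were not analysed here.

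The list holds no score under 0.50, so the scores below are those of sites that had passed the classifier. Mid sites scored from 0.50 to 1, with a median of 0.796 (quartiles 0.690 and 0.871), against 0.810 (0.712 and 0.882) just after the stop codon, 0.794 (0.665 and 0.874) in the distal zone and 0.707 (0.606 and 0.800) in the coding sequence. Over the 8 bins of the mid zone, the medians ran from 0.777 to 0.804. In the 1044 genes with sites in both zones, the mean score was higher just after the stop codon in 593 and lower in 451, with a median difference of 0.022 (0.013 to 0.028, exact two-sided sign test, adjusted p = 1.49e-05). The difference was 0.0058 with an unadjusted p = 0.089 in the exact sign test when sites scoring under 0.7 were left out. Between the mid and distal zones the difference was -0.0017 (-0.013 to 0.016), with the mid zone higher in 167 genes and lower in 170 (exact sign test, adjusted p = 0.913). Without sites under 0.7 it was -0.014, with an unadjusted p = 0.00867 in the exact sign test.

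A score of exactly 1 was reached by 9 mid sites, among 25 in the whole list. Besides those of DNAJC5 and LZTR1, they included ITGA3, the alpha subunit of a laminin-binding integrin (447 nt after the stop codon), and METTL1, the methyltransferase that makes 7-methylguanosine in tRNA (231 nt). Of these 4 named sites, that of LZTR1 lay at AGACT and the others at GGACT. The 3 lowest scores, all 0.50, belonged to the glycolytic enzyme HK1 at AGACA, ANKRD54 at AGACC and the drug exporter ABCC1 at GTACT. Scores differed by pentamer, but the bases around the A were inputs of the classifier that gave them, so this is not independent of it. Median scores were 0.876 at GAACT (quartiles 0.808 and 0.917), 0.869 at GGACT (0.811 and 0.920), 0.803 at GGACA, 0.680 at AGACA and 0.591 at TGACC.

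Most host genes held few mid sites. The median was 2 per gene (quartiles 1 and 4) and the maximum was 14. A single mid site was found in 564 genes (35.3%), whereas 275 genes with 5 or more held 1776 of the sites (40.5%). Of the 1599 hosts, 1044 (65.3%) also had sites just after the stop codon, 939 (58.7%) had sites in the coding sequence and 337 (21.1%) had distal sites. In 199 hosts (12.4%) every listed site on the canonical transcript was a mid site.

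Among the 10 genes with the most mid sites, ITGA3 and ENG encode cell surface proteins. The share of such genes among all hosts was not counted. ITGA3, which lies on chromosome 17, held 14 mid sites in its 3' UTR of 1403 nt, at chr17:50089460-50090041 in exon 26 of 26. They began 382 nt and ended 963 nt after the stop codon, and 12 of its 20 mid-zone DRACH motifs were listed. Scores lay between 0.515 and 1 (median 0.827), and no site was listed in the first 200 nt. ENG, the TGF-beta co-receptor endoglin, held 11 mid sites in a 3' UTR of only 666 nt, with 9 of 15 motifs listed and scores from 0.502 to 0.944. FAM20C, the Golgi kinase that phosphorylates secreted proteins, held 10 in a 3' UTR of 792 nt, with scores from 0.633 to 0.928 and 4 further sites just after the stop codon.

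Other leading hosts act inside the cell. PIP5K1C, a lipid kinase that makes phosphatidylinositol bisphosphate, held 12 mid sites, with 9 of 17 motifs listed and no score above 0.858. It also held 16 distal sites, more than any other of the 10 leading hosts. SLC25A29, a mitochondrial carrier of basic amino acids, held 12 mid sites at 12 of 17 DRACH motifs, the highest share of the 10 leading hosts at 70.6%. SEC61A1, the channel subunit through which proteins enter the endoplasmic reticulum, held 11, with a median score of 0.869. CENPO, a kinetochore protein, held 11 between 353 and 989 nt after the stop codon and none before, with scores from 0.504 to 0.969.

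The transcription factor NFIC held 11 mid sites at the start of an annotated 3' UTR of 6448 nt, of which 6 lay at DRACH. It held 2 distal sites in the remaining annotated length. ADM2, which encodes a peptide hormone of the adrenomedullin family, held 10, with the lowest median score of these hosts at 0.683. CYBC1, a chaperone for the phagocyte oxidase, held 10 at 10 of 19 DRACH motifs, with scores from 0.528 to 0.962. FOXK2, FRMD8, IL4R, ITGA5 and MXRA8 also held 10 and came after these by symbol.

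**Figure D3:**
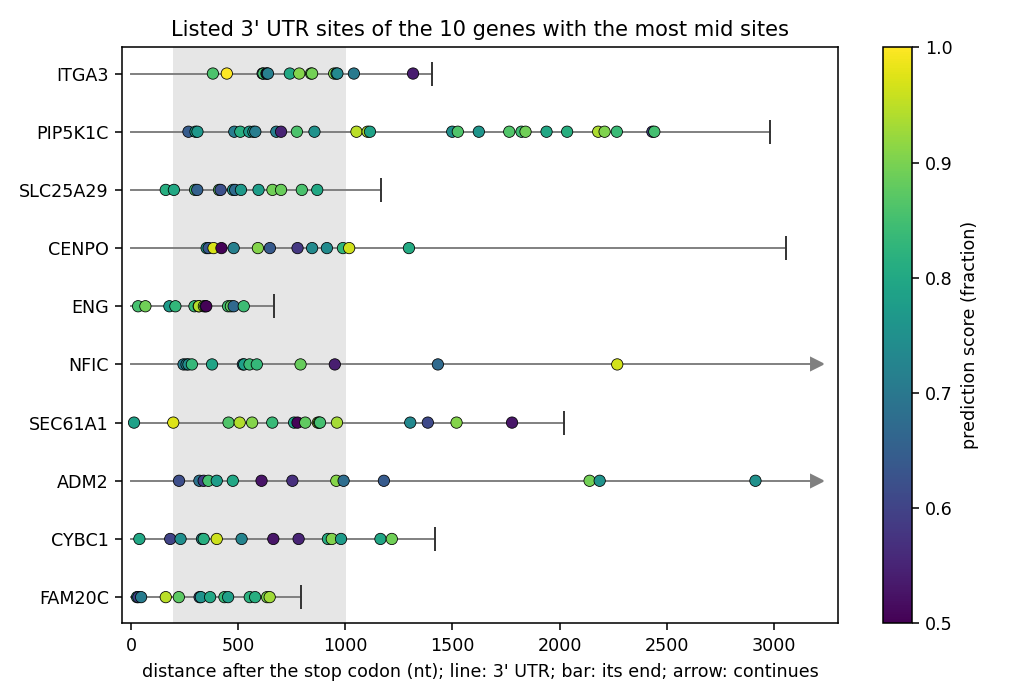
Listed sites in the 3' UTRs of the 10 genes with the most mid sites, by distance in nt after the stop codon, coloured by score. The mid zone is shaded, a bar marks the annotated end and an arrow a 3' UTR that goes on; ITGA3, PIP5K1C, CENPO, NFIC and ADM2 have no site before the shaded zone, and PIP5K1C has 16 after it.

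Mid sites were often near each other. Of 2788 pairs of neighbouring mid sites in 1035 genes, 1174 lay at most 50 nt apart (42.1%, 40.3 to 43.95) and 291 at most 10 nt. The median spacing was 65 nt, against 37 nt just after the stop codon and 82 nt in the distal zone. The share at most 50 nt apart was 63.4% (61.2 to 65.6) just after the stop codon and 36.5% (33.5 to 39.7) in the distal zone. Spacing is bounded by the length of a zone and by how many of its motifs are listed, so these shares are given as descriptions.

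**Figure D4:**
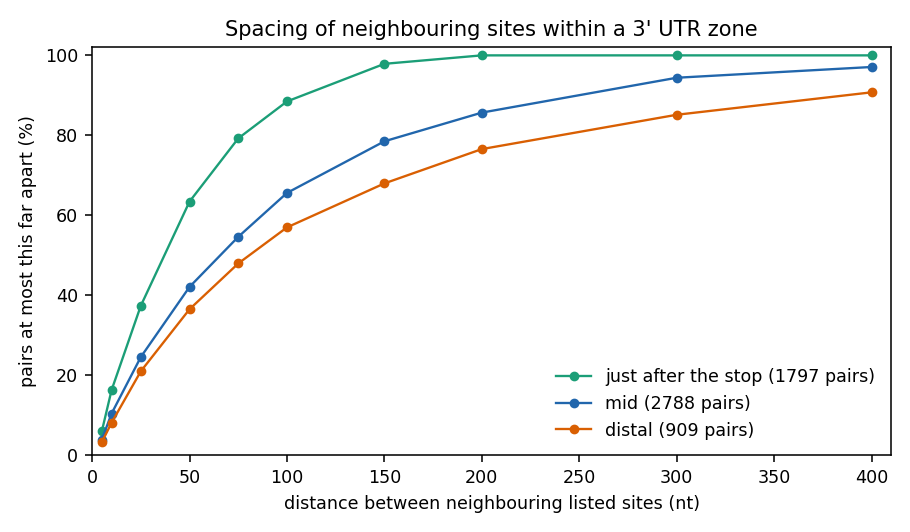
Percent of neighbouring listed sites in the same zone and gene that lie at most a given distance apart, in nt. At 50 nt the curve for mid sites stands at 42.1%, below the 63.4% just after the stop codon and above the 36.5% of the distal zone; the first zone is 200 nt long, which caps its spacing.

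The tightest run of 4 mid sites spanned 13 nt in EPHA2, a receptor for ephrins on chromosome 1. The windows of the run, printed as above, overlap, so each holds its neighbours. These are in lower case, except that the adjacent sites at 431 and 432 nt lie within each other's capitals.
EPHA2, 425 nt: aagagggcAGACTgtgaactt
EPHA2, 431 nt: gcagactgTGAACttgactgg
EPHA2, 432 nt: cagactgtGAACTtgactggg
EPHA2, 437 nt: tgtgaactTGACTgggtgaga

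The first window is chr1:16124780-16124800 and the last chr1:16124768-16124788, both on the minus strand of GRCh38, in exon 17 of 17. The 3 DRACH sites of EPHA2 in this run scored 0.904, 0.963 and 0.733, and the non-DRACH site next to the second scored 0.513. There were 110 pairs of mid sites at most 5 nt apart, and whether both members of such a pair are modified was not tested.

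The surroundings of mid sites were compared with those of unlisted DRACH motifs of the same genes and zone, over 101 nt centred on the A and on the transcript strand. Listed motifs had a median GC content of 58.4% (quartiles 52.5% and 62.4%) and unlisted ones 53.5% (45.5% and 59.4%). The AU-rich element core ATTTA stood in 133 of 3833 listed windows (3.47%, 2.94 to 4.10) and in 1160 of 13828 unlisted windows (8.39%, 7.94 to 8.86). The polyadenylation signal AATAAA stood in 1.3% (0.991 to 1.72) of listed and 5.24% (4.88 to 5.63) of unlisted windows. The Pumilio motif TGTANATA, where N is any base, stood in 0.339% (0.198 to 0.579) and 1.24% (1.07 to 1.43). All 3 motifs are rich in A and T and thus vary with GC content, and AATAAA sits close to transcript ends, where few motifs were listed. A motif here is a match of letters and no evidence of binding.

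Host genes were then grouped by function. For each group, the genes with a mid site were counted among those that held any listed site and had a 3' UTR over 200 nt, to be read against the 49.1% of all such hosts, with no test. Among genes of the secretory pathway and membrane, Golgi glycosyl- and sulfotransferases stood highest, with 19 of 26 (73.1%, 53.9 to 86.3). They included NDST1, which sulfates heparan sulfate (8 sites), the sialyltransferase ST3GAL3 (7) and CHST10 (6). Solute carriers had mid sites in 42 of 64 (65.6%, 53.4 to 76.1), led by SLC25A29 (12), SLC66A2 (7) and SLC35E2B (6). The median 3' UTR of the eligible genes was 1580 nt in the Golgi group and 1086 nt among solute carriers. The TMEM genes, a mixed set of membrane proteins, had 21 of 50 (42.0%, 29.4 to 55.8), with 7 sites in TMEM127 and 6 each in TMEM234 and TMEM250.

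Signalling genes were spread around the background. The group named growth factor receptors also took in receptors for ephrins, such as EPHB2 and EPHA2. It had mid sites in 6 of 9 genes (66.7%, 35.4 to 87.9), with 8 in EPHB2, 5 in EPHA2 and 4 in PDGFRB. Genes of the WNT, NOTCH and Hippo pathways had 7 of 12 (58.3%, 32.0 to 80.7), with 10 sites in the WNT ligand gene WNT5B, 9 in WNT7B and 4 in HES6. The MAPK feedback genes had 5 of 11 (45.5%, 21.3 to 72.0), with 7 sites in the phosphatase gene DUSP5 and 1 each in DUSP1 and DUSP4. TGF-beta and SMAD genes had 3 of 9 (33.3%, 12.1 to 64.6), namely the signal transducer SMAD3 (7), its repressor SKI (4) and LTBP3 (1). The list is fixed by symbol and leaves out other genes of the pathway, such as ENG with its 11 mid sites. Collagens and laminins had 5 of 11 (45.5%, 21.3 to 72.0), with 5 sites in COL6A1, 4 in COL18A1 and 2 in LAMB3.

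Among nuclear and protein turnover genes, zinc finger proteins had 31 of 67 (46.3%, 34.9 to 58.1), with 7 sites in ZNF213, 6 in ZNF324 and 4 in ZNF324B. The last pair are close paralogs, and reads that fit both were left out by the authors, who kept uniquely mapping reads only. KLF and SP factors had 3 of 5 (60.0%, 23.1 to 88.2), namely KLF13 (3), KLF16 (2) and SP2 (1). Tripartite motif and RING ubiquitin ligases had 13 of 34 (38.2%, 23.9 to 54.96), with 9 sites in RNF187, 6 in RNF40 and 3 in RNF121. The housekeeping groups were lowest. Cytoplasmic ribosomal proteins had 3 of 15 (20.0%, 7.05 to 45.2), namely RPL13A (3), RPL13 (2) and the related ribosome biogenesis gene RPL7L1 (1). Of their 148 mid-zone DRACH motifs 5 were listed (3.38%, 1.45 to 7.66), against 11.98% in all hosts, and the median 3' UTR of the 15 eligible genes was 1392 nt. Ribosomal protein genes have many processed pseudogenes. The authors kept only uniquely mapping reads, so reads that fit several copies were left out. Whether this lowered the share was not tested. Respiratory chain subunits had 2 of 10 (20.0%, 5.67 to 50.98), COX7A2L and UQCR11 with 1 site each.

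**Figure D5:**
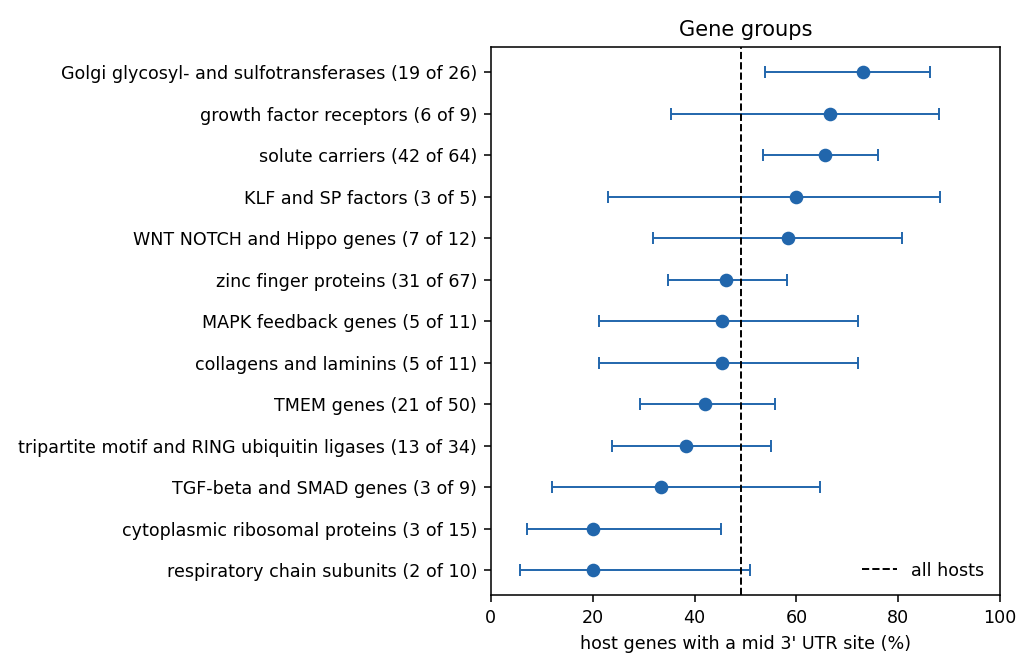
Percent of host genes that hold a mid site, by the gene groups described above that have at least 5 eligible genes, with 95% Wilson intervals and the count behind each share. The dashed line is the 49.1% of all hosts; the intervals of Golgi transferases and solute carriers lie above it and that of ribosomal proteins below it.

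DDIT4, ABT1, MIF4GD and CCDC85B were looked up as examples of the genes that the study names. In another cell line, HEK293T, the study tested positions of DDIT4 and ABT1 that differ from the mid sites given here. Its antibody-free assay found m6A at the DDIT4 position but not at the ABT1 position. Mif4gd was studied there for intron retention in mouse embryonic stem cells. DDIT4, a stress-induced inhibitor of mTOR signalling, held 2 mid sites. They lay 648 nt (GTACT, score 0.551) and 739 nt (GAACT, score 0.666) after the stop codon, beside 3 sites in its first 200 nt. ABT1, a nucleolar protein, held 1 mid site, 204 nt after the stop codon at ATACT with a score of 0.589. MIF4GD, a translation factor for histone mRNA, held 2 sites just after the stop codon and 0 mid sites among 4 mid-zone DRACH motifs. CCDC85B was not among the host transcripts with at least 2 exons.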

How the data were processed

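Per the labels, miCLIP2 was run on polyadenylated RNA of C643 cells. The authors aligned reads to GRCh38 (STAR 2.7.3a), removed duplicates (UMI-tools 1.0.0), called peaks per replicate, kept those found in at least 2 replicates and classified peaks at A with m6Aboost. The deposited score is a fraction, pooled over replicates. Counts, rejected peaks and values of single replicates are not part of the list. The classifier used 21 nt of sequence, transcript region, C-to-T transitions and relative signal strength, so region and motif comparisons are not independent of it.

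Sites were placed on GENCODE 44 canonical transcripts (the authors used release 31 on the same assembly). Where several held a site (215 sites, 69 of them mid), transcripts that are not readthrough, then MANE Select, then mid placement, then the longest came first. DRACH motifs of the 3627 host transcripts were marked listed or not. Odds ratios are Mantel-Haenszel estimates with Robins-Breslow-Greenland 95% intervals and two-sided Cochran-Mantel-Haenszel tests. For the last exon start, where the gene cannot be a stratum, a logistic model with errors clustered by gene was added (statsmodels 0.14.6). Scores were compared by exact two-sided sign tests over genes. The 6 p-values were adjusted by Benjamini-Hochberg at a threshold of 0.05, and shares have 95% Wilson intervals. Both tests were tested on simulated data.

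The members, gene lists and tests were chosen with earlier results of these data known. Named genes are the 10 hosts with the most mid sites, the 5 highest and 3 lowest scores, sites at the bounds, up to 3 leading hosts per gene group and 4 genes of the study; 1 of the highest-scoring sites and 1 gene group are not reported here. Printed sequences are the highest-scoring site at the 6 most frequent DRACH and 3 most frequent other pentamers, outside chromosome 8, and the tightest run of 4. Alternatives changed the score threshold, transcript, window, motif set, strata and 3' UTR length, and left out sites that are coding or 5' UTR in any transcript, motifs near junctions or, chosen after seeing the data, motifs within 100 nt of the transcript end. Statistics used scipy 1.17.1 and numpy 2.4.6, tables pandas 2.3.3, sequence pysam 0.24.0 and figures matplotlib 3.10.9, under Python 3.11.15.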

Additional observations from a re-analysis of the deposited data

How the results depend on the processing

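Of 80 recomputations of the 12 results, 66 gave the same call. Some of these could not differ. Keeping only 3' UTRs over 1000 nt left both mid against distal results unchanged, since only such genes have a distal zone. For values with no test, this meant lying inside the 95% interval. The site count has no interval and was called the same if it stayed within a set factor of 4387. Its lowest value was 2935, with 3' UTRs over 1000 nt alone. This fall from 4387 still counted as the same, so that call is a loose one. Of the tested results, 0 reversed. The odds ratios stayed past the threshold throughout, at 2.47 to 3.32 for just after the stop codon against mid, 3.20 to 5.01 for mid against distal, 6.62 to 8.90 for GGACT against other motifs and 0.662 to 0.768 for the last exon start, with motifs counted as independent except in the model with errors clustered by gene. The lowest ratio of just after the stop codon to mid, 2.47, came from leaving out motifs within 100 nt of the transcript end, chosen after seeing the data. With a score of at least 0.7, the listed DRACH share was 9.49%, the DRACH share of sites 94.7%, the median score 0.837, the share of neighbours within 50 nt 39.0%, the score difference just after the stop codon minus mid 0.0058 (exact sign test, p = 0.089) and mid minus distal -0.0135 (p = 0.00867). The first 3 follow from leaving out low scores, and for the others the cause was not tested. With 3' UTRs over 1000 nt alone, the listed share was 11.4%, the median distance 458 nt and the neighbour share 39.2%. With the window opening after 300 nt, the listed share was 10.7% and the median distance 502 nt. The listed share was 10.1% for RAC motifs, 38.8% for GGACT alone and 12.8% without the last 100 nt. The p-values of alternatives are unadjusted. No replicate could be left out of the pooled list, and its read depth is unknown. No paired analysis was possible because all samples belong to 1 group.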

Other observations

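The 12 mid sites outside a last exon came from 2 genes, chosen after their values were seen. MARVELD1, a membrane protein of the MARVEL domain family, held 6 mid sites with scores from 0.569 to 0.831 (median 0.628), of which 3 lay at DRACH, beside 6 distal sites. The zinc finger gene ZFP41 held 6 with scores from 0.662 to 0.959 (median 0.841), of which 4 lay at DRACH. Of the 75 mid-zone DRACH motifs outside last exons, 7 were listed (9.33%, 4.59 to 18.03), and of the 54 within 100 nt of an exon junction 4 were (7.41%, 2.92 to 17.6). These shares overlap the 11.98% of the whole mid zone, so a difference was not detectable with so few motifs.

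Of all 18448 annotated multi-exon coding genes, 19.7% held a listed site in an exon of the canonical transcript. Sites elsewhere were not assigned to genes. Of the 20 annotated multi-exon writers, readers and erasers, 1 held any such site and 0 held a mid site. None of the 10 annotated multi-exon thyroid differentiation genes, such as TG, held a listed site in an exon of its canonical transcript. With no expression values analysed here, a lack of sites cannot be told apart from low expression.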
